A study of Drosophila melanogaster with 12 samples.

Results

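The transcriptome of whole adult female Drosophila melanogaster kept on a glucose-enriched diet was compared with that of females on the unmodified diet. The comparison used 6 arrays, 3 for each diet, out of the 12 arrays of the study, and the other 6 arrays hold dissected midgut from the same diets. Membership followed the sample titles alone, so no measured value chose the arrays, and all probe sets other than the Affymetrix controls were tested. Each whole fly sample was total RNA of 5 pooled animals, and each midgut sample that of 10 pooled midguts. All flies carried the w1118 genotype, a mutant white allele that removes the eye pigment, and grew on standard cornmeal food at 25 °C until eclosion. For 10 days after eclosion the glucose group ate a holidic diet with glucose at 100 g/L, and the unmodified group ate the same kind of diet without this enrichment, both at 25 °C. The labels do not say whether 100 g/L is the amount added or the final amount, or whether the 3 samples of a diet came from separate cultures. The p-values therefore measure the spread between these samples, which may be technical.

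A holidic diet is a fully defined synthetic food, in which a nutrient can be raised while the other ingredients are held. Flies sense glucose through the paired transcription factors Mondo and Bigmax, which switch on further regulators such as Sugarbabe. The fat body stores sugar as glycogen and triglyceride, and the peptide adipokinetic hormone releases those stores. A laying female also holds a large ovary, in which nurse cells load the oocyte with maternal RNA. Fat body and follicle cells make the yolk proteins, and follicle cells secrete the vitelline membrane and, last, the chorion of the egg.

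The tissue and sex on the labels were checked against marker genes. The yolk protein genes Yp1, Yp2 and Yp3 lay between 12.65 and 13.32 on the log2 scale on all 6 arrays. Of 22 measured genes of the testis and male accessory gland, 21 stayed under the array median on every array, and the exception, Acp95EF, lay at 6.14 to 6.43 on glucose and 6.29 to 6.47 on the unmodified diet. For the tissue, the median signal of the measured genes was 7.19 for phototransduction, 8.66 for muscle and 5.76 for neurons. It was 7.82 for hemocytes and 7.53 for fat body and haemolymph. Array medians lay between 4.04 and 4.15. The leading principal component held 51.1% of the variance. Glucose replicates 1, 2 and 3 scored -36.5, -4.0 and -25.5 on it, and unmodified replicates 1, 2 and 3 scored 16.3, 37.5 and 12.1. Glucose replicate 2 thus lay nearest to the unmodified arrays, and unmodified replicate 2 lay farthest from the glucose arrays. The mean 3′ minus 5′ signal of 3 control transcripts, a measure of RNA integrity, was 3.56, 4.24 and 3.85 on glucose and 3.91, 4.53 and 3.58 on the unmodified diet, so the diets overlapped.

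Of 18769 probe sets, 584 (3.11%) differed between the diets at an adjusted p under 0.05 in limma with Benjamini-Hochberg adjustment over all of them. On glucose 247 (1.32%) were higher and 337 (1.8%) were lower, and for all 584 the 3 arrays of one diet lay beyond the 3 of the other. Such a separation was common, with 4761 probe sets (25.4%) in all. Taking the brightest probe set of each named gene, 203 of 11982 genes rose (1.69%) and 276 fell (2.3%). Without overlap 13% were higher and 16.5% lower, and these shares are the background for the counts of every list below. The rises were the larger changes. The median difference, glucose minus unmodified, was 0.83 on the log2 scale among the genes that rose and -0.71 among those that fell, and 68 of the risen genes and 28 of the fallen genes moved by at least 1. Genes known only by a CG or CR number made up 45.3% of the risen genes and 23.9% of the fallen genes, against 43.6% of all genes measured.

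The calls rested on the full set of arrays. Their adjusted p-values lay between 0.0310 and 0.0499. Without glucose replicate 2 the count was 1563 probe sets, of which 569 were among the 584. It dropped to 0 and 2 when glucose replicate 1 or 3 was left out, and to 0, 1 and 1 when unmodified replicate 1, 2 or 3 was, against 2831, 2973, 3352, 3162 and 3992 at an unadjusted limma p under 0.05. All 99 called genes named by the rule for lists and largest changes kept their direction without any 1 array. Their separation by diet fixed this in advance, so it is no check of the differences. Of the 99, 75 passed in the fit over all 12 arrays. With a trend and robust prior, in which limma lets the expected variance follow the signal, 85 passed. Under every alternative fit that kept the 6 arrays 64 passed. The smallest p that an exact permutation of 3 arrays against 3 allows for 1 gene is 0.1.

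**Figure D1:**
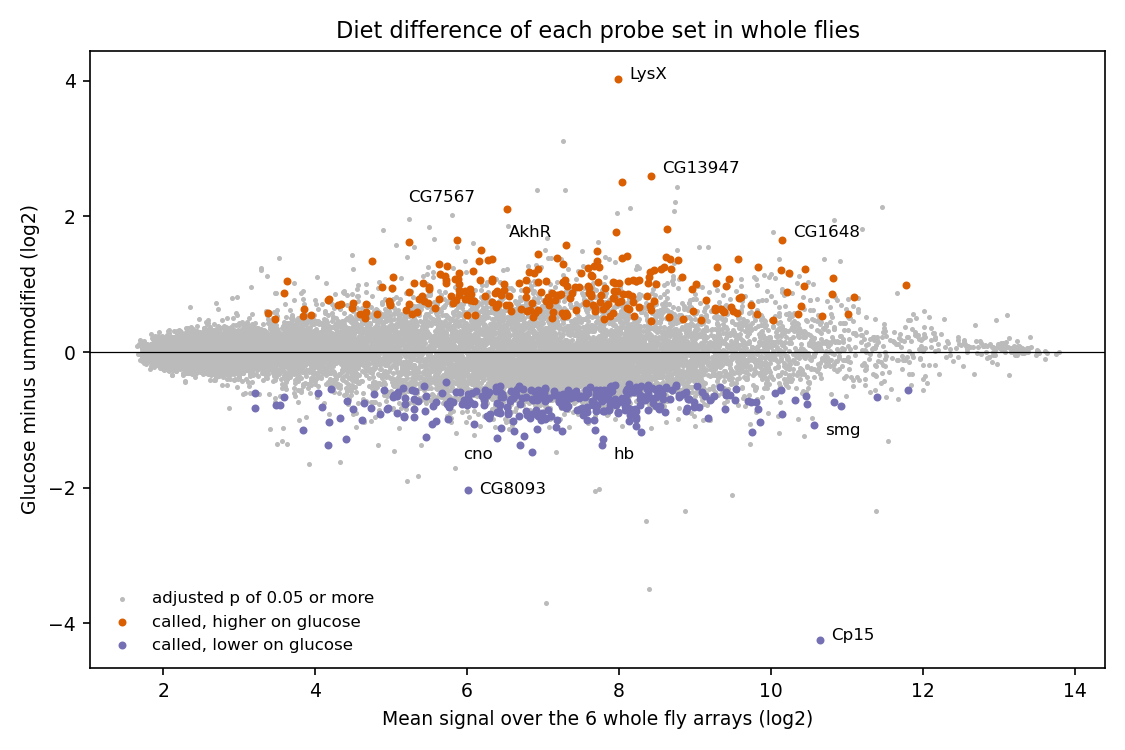
Difference between the diets (glucose minus unmodified, log2) of each of 18769 probe sets against its mean signal over the 6 whole fly arrays (log2). Orange points are the 247 probe sets called higher on glucose, purple points the 337 called lower, and grey points the rest, and LysX and Cp15 stand at the 2 ends.

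The largest rise was that of LysX, a lysozyme gene, whose product cuts bacterial cell walls and serves in digestion. It gave 9.64, 9.91 and 10.46 on the glucose arrays, against 4.56, 5.49 and 7.87 on the unmodified arrays, a difference of 4.03 (SE 0.73, limma adjusted p 0.0395). The glucose arrays lay close together, while unmodified replicate 3 stood well above the other 2 unmodified arrays. In RNA of whole animals, more cells of a type and more RNA per cell cannot be told apart, and this holds for every result below. CG13947 had 9.46, 8.87 and 10.82 on glucose and 6.83, 6.65 and 7.89 on the unmodified diet, a difference of 2.59 (SE 0.50). The non-coding RNA lncRNA:CR32368 had 9.84, 8.24 and 9.80 on glucose and 6.21, 6.69 and 7.46 on the unmodified diet, a difference of 2.51 (SE 0.47). With a trend and robust prior LysX, CG13947 and lncRNA:CR32368 were not called, at limma adjusted p-values of 0.115, 0.102 and 0.0845. Neither CG13947 nor lncRNA:CR32368 overlapped between the diets, and glucose replicate 2 was the lowest glucose array for both. CG34232, CG9825, CG1648, CG10154, CG8353, CG17224 and CG7567 rose by 1.51 to 2.12. CG14022, at 8.92, 8.58 and 8.93 on glucose and 7.43, 7.21 and 7.55 on the unmodified diet, had a difference of 1.41 (SE 0.14, limma adjusted p 0.0310). Among the named genes of this group were AkhR, described with its hormone, and Nazo, an antiviral gene induced through STING, at 1.49 (SE 0.21). Odc1, which encodes ornithine decarboxylase, the entry enzyme of polyamine synthesis, rose by 1.39 (SE 0.27).

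The largest fall was that of the chorion gene Cp15, described with the eggshell genes. CG8093, of the lipase family, gave 4.12, 5.29 and 5.56 on glucose and 7.29, 6.99 and 6.79 on the unmodified diet, a difference of -2.04 (SE 0.34, limma adjusted p 0.0371). Next came cno, encoding the afadin homologue Canoe that ties adherens junctions to actin, with 5.72, 6.12 and 6.18 on glucose, 7.28, 7.51 and 7.33 on the unmodified diet and a difference of -1.37 (SE 0.14). A second, dim probe set of cno showed 0.04. Several of the other largest falls belong to genes with roles in the egg and early embryo. The gene wisp, encoding the poly(A) polymerase that lengthens the tails of maternal messengers, had 8.81, 9.53 and 9.14 on glucose and 10.46, 10.29 and 10.25 on the unmodified diet, a difference of -1.17 (SE 0.18). The gene brat, a translational repressor that acts on hunchback messenger together with Pumilio and Nanos, had 7.42, 7.90 and 7.80 on glucose and 8.92, 9.03 and 8.69 on the unmodified diet, a difference of -1.17 (SE 0.15). Both were separated by diet on all 6 arrays. The cohesin release factor gene wapl and the palmitoyltransferase family gene Zdhhc8 fell, with differences of -1.15 (SE 0.19) and -1.23 (SE 0.25). CG9993, CG15533, CG6283, CG43759, CG2186 and Remo fell, with differences of -1.36 to -1.16.

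Among the sugar sensing genes, 4 of 12 measured members rose (33.3%) and 1 fell (8.33%), against 1.69% and 2.3% of all named genes. The other 7 did not pass the test. The signal of sug, encoding the glucose-responsive factor Sugarbabe, was 8.35, 8.13 and 8.13 on glucose and 7.02, 6.81 and 7.35 on the unmodified diet, a rise of 1.14 (SE 0.15, limma adjusted p 0.0334). For bigmax, the values were 8.19, 8.21 and 8.24 on glucose and 7.59, 7.69 and 7.60 on the unmodified diet, a rise of 0.58 (SE 0.09). Its partner Mondo had 8.50, 8.55 and 8.41 on glucose and 8.46, 8.36 and 8.71 on the unmodified diet, with a difference of -0.02 (SE 0.12). Glucose replicate 2 sat with the other glucose arrays for both sug and bigmax, and the diets overlapped for Mondo. The zinc finger gene cbt, a target of Mondo, rose by 0.63 (SE 0.11), with 9.56, 9.61 and 9.82 on glucose and 9.04, 8.96 and 9.10 on the unmodified diet.

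The activin pathway carried the other changes of that list. Actbeta, which encodes an activin ligand, had 5.16, 4.85 and 5.05 on glucose and 4.23, 4.45 and 4.25 on the unmodified diet, a rise of 0.71 (SE 0.12). Another ligand gene, daw, which Mondo controls in larvae, had 8.62, 7.62 and 8.16 on glucose and 7.37, 6.64 and 7.58 on the unmodified diet; its difference of 0.94 (SE 0.30, limma adjusted p 0.121) did not pass. The receptor gene babo had 6.90, 7.35 and 7.06 on glucose and 7.87, 8.06 and 7.86 on the unmodified diet, a difference of -0.83 (SE 0.14). The downstream effector Smox stood at 0.02 (SE 0.15). A ligand thus rose and its receptor fell, each without overlap between the diets. The glucosidase gene tobi stood at -0.94 (SE 0.45), the fructose receptor gene Gr43a at -0.22 (SE 0.11), and the nuclear receptor genes ERR and Hnf4 at -0.11 and -0.03, none of which passed.

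**Figure D2:**
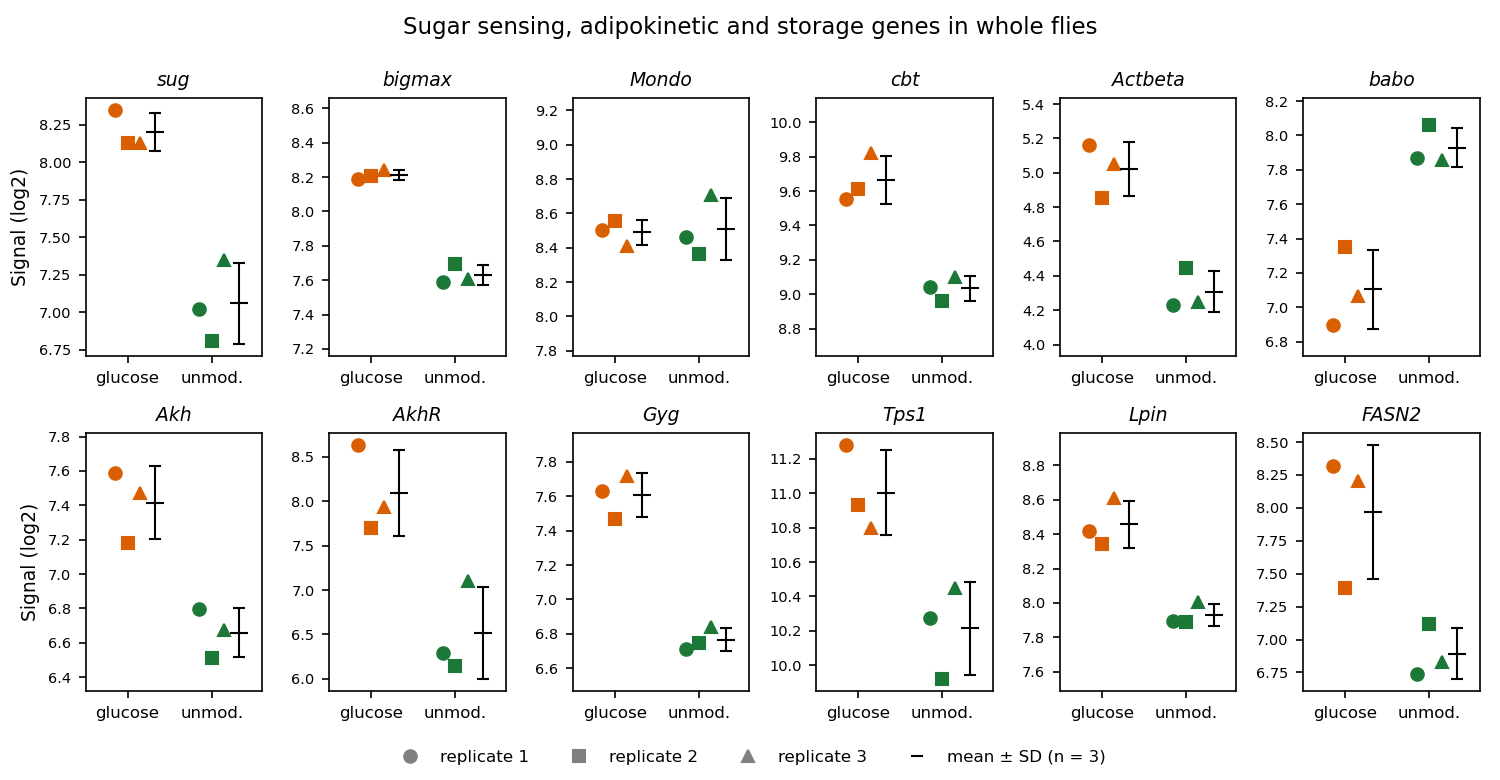
Signal (log2) of 12 sugar sensing, adipokinetic and storage genes on each whole fly array, glucose (orange) left of unmodified (green), with the mean ± SD of 3 arrays beside the points; each panel has its own scale. The diets are separate in every panel other than that of Mondo, and the differences of Tps1 and FASN2 missed the threshold.

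The adipokinetic axis rose at both its hormone and its receptor. Akh, the hormone that mobilises stored sugar and fat, gave 7.59, 7.18 and 7.47 on glucose and 6.8, 6.51 and 6.67 on the unmodified diet, a rise of 0.75 (SE 0.14, limma adjusted p 0.0395). AkhR, which encodes its receptor on fat body cells, gave 8.63, 7.70 and 7.93 on glucose and 6.29, 6.14 and 7.10 on the unmodified diet, a rise of 1.58 (SE 0.30, limma adjusted p 0.0418). The gut and brain peptide gene Dh31 had 6.48, 6.20 and 6.58 on glucose and 5.56, 5.39 and 5.85 on the unmodified diet, and rose by 0.82 (SE 0.15). No diet overlap was seen in these 3 genes, and glucose replicate 2 was again the lowest glucose array. Of the 22 measured genes of this axis and of satiety hormones, 3 rose (13.6%, against 1.69% of all named genes) and none fell. The median difference was 0.23 against -0.01 over all named genes. The differences of ITP, CCHa1 and AstC, 0.59, 0.50 and 0.71, did not pass.

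No insulin signalling gene passed the test. Among the 17 measured members 10 differences were positive and 7 negative, and the median was 0.06. S6k stood at 0.51 (SE 0.14, limma adjusted p 0.0929) and Tsc1, an inhibitor of the growth kinase TOR, at -0.49 (SE 0.14, limma adjusted p 0.0960). The difference of Akt was 0.49 (SE 0.24) and that of Ilp7, an insulin-like peptide gene, -0.49 (SE 0.20). Of 23 measured juvenile hormone and ecdysone genes 1 fell (4.35%, against 2.3% of all named genes). It was the nuclear receptor gene Hr39, at 6.51, 6.69 and 6.63 on glucose and 7.27, 7.21 and 7.08 on the unmodified diet (difference -0.58, SE 0.10). Its dimmer probe sets showed -0.69, -0.07 and -0.38, none of them called. The ecdysone receptor partner usp stood at -0.48 (SE 0.14), without passing.

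Storage genes changed at single steps. Gyg, encoding glycogenin, the primer of glycogen synthesis, had 7.63, 7.47 and 7.72 on glucose and 6.71, 6.75 and 6.84 on the unmodified diet, a rise of 0.84 (SE 0.11, limma adjusted p 0.0334). Its dimmer second probe set showed -0.30 (SE 0.26), so the rise was not seen by both. Gyg was the 1 called gene of 15 for gluconeogenesis, trehalose, glycogen and polyols (6.67%, against 1.69% of all named genes). The trehalose synthase gene Tps1 had 11.28, 10.93 and 10.80 on glucose and 10.28, 9.92 and 10.45 on the unmodified diet, a difference of 0.79 (SE 0.17, limma adjusted p 0.0536). The polyol dehydrogenase gene Sodh1 stood at -0.88 (SE 0.20, limma adjusted p 0.0544), and Glys and Glyp, for glycogen synthesis and breakdown, at -0.16 and -0.17. None of 11 glycolysis genes passed, with a median difference of -0.01; Gpdh1 stood highest at 0.63 (SE 0.20) and Pfk lowest at -0.15 (SE 0.11), while Hex-A, Hex-C, Pgi, Ald1, Tpi, Gapdh1, Pgk, Pglym78 and Eno lay between -0.14 and 0.23. None of 7 pentose phosphate and NADPH genes (Men, Men-b, Idh, Taldo, Rpi, Pgls and CG8036) passed, at -0.23 to 0.14, and none of 10 sugar transporter genes did, from sut1 at -0.65 to sut2 at 0.38.

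In fatty acid and triglyceride synthesis, 1 of 26 genes rose and 1 fell (3.85% each, against 1.69% and 2.3% of all named genes). Lpin, encoding the phosphatidate phosphatase on the path to triglyceride, had 8.42, 8.34 and 8.61 on glucose and 7.89, 7.89 and 8.0 on the unmodified diet, a rise of 0.53 (SE 0.11, limma adjusted p 0.0478). SCAP, the escort of the lipid regulator SREBP, had 5.72, 5.67 and 5.65 on glucose and 6.49, 6.56 and 6.18 on the unmodified diet, a difference of -0.73 (SE 0.12). Both were separated by diet. The fatty acid synthase gene FASN2 had 8.32, 7.39 and 8.20 on glucose and 6.74, 7.11 and 6.83 on the unmodified diet, a difference of 1.08 (SE 0.24, limma adjusted p 0.0542). Fad2 stood at 1.14 (SE 0.29), Elovl7 at 0.47 (SE 0.11) and Agpat3 at 0.51 (SE 0.15), all separated and none called. The list median was 0.21, and it ranged from 0.06 to 0.34 without 1 array. No gene of fatty acid breakdown passed among 16.

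Lipase and sterol genes were split. Of 16 measured, 3 fell (18.8%, against 2.3% of all named genes). They were CG8093, the lipase-family gene CG6283 at -1.27 (SE 0.23), and Hr96, a nuclear receptor of sterol and fat uptake, at -0.58 (SE 0.11). CG6283 had 5.72, 5.67 and 5.88 on glucose and 7.59, 6.74 and 6.75 on the unmodified diet. The values of Hr96 were 6.87, 6.95 and 6.74 on glucose and 7.42, 7.53 and 7.34 on the unmodified diet. The sterol carriers Npc2b, Npc2h and Npc2g had positive differences of 0.55, 1.37 and 0.98, which did not pass. The median of 0.02 took the other sign, -0.03, when arrays were centred on their medians.

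Eggshell genes varied by several log2 units between samples of 1 diet. Cp15, made in the last stage of chorion synthesis, gave 8.25, 10.06 and 7.26 on glucose and 13.29, 11.71 and 13.30 on the unmodified diet, a difference of -4.24 (SE 0.70, limma adjusted p 0.0371). It was the 1 called member of 4 late chorion genes, and with a trend and robust prior it was not called (limma adjusted p 0.102). Cp18 had 6.56, 4.39 and 4.62 on glucose and 8.85, 4.94 and 12.87 on the unmodified diet, a difference of -3.70 (SE 1.70, limma adjusted p 0.264). The diets overlapped for Cp18. Cp19 was high in glucose replicate 1 and low in the others, with 12.76, 5.31 and 5.05 on glucose and 11.38, 6.36 and 12.39 on the unmodified diet (difference -2.34, SE 2.24). Cp16 followed the same samples, at 10.90, 4.61 and 4.49 on glucose and 9.48, 4.78 and 11.88 on the unmodified diet (difference -2.05, SE 2.12).

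The early chorion genes had positive differences, none called. Cp36 gave 13.41, 11.64 and 12.54 on glucose and 12.64, 12.35 and 6.17 on the unmodified diet, a difference of 2.14 (SE 1.55). Cp38 gave 13.16, 11.09 and 12.09 on glucose and 12.19, 11.89 and 6.8 on the unmodified diet, a difference of 1.82 (SE 1.32). Cp7Fc gave 9.03, 8.87 and 6.89 on glucose and 9.02, 8.43 and 2.85 on the unmodified diet, a difference of 1.5 (SE 1.48). Unmodified replicate 3 stood low for all 3 early genes, and was the highest array for Cp18 and the highest unmodified array for Cp19 and Cp16. Without that array the median of the early genes was 0.04, against 1.82 with it.

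Vitelline membrane and other eggshell genes were mostly lower on glucose, with 11 of 12 negative differences, a median of -1.39 and no call. Vm32E had 5.97, 3.88 and 10.09 on glucose and 9.33, 11.03 and 10.06 on the unmodified diet, a difference of -3.49 (SE 1.35, limma adjusted p 0.182). Vm34Ca had 10.13, 7.97 and 12.56 on glucose and 11.90, 13.12 and 12.66 on the unmodified diet (difference -2.34, SE 0.98), and dec had 7.69, 7.12 and 10.49 on glucose and 10.18, 10.62 and 10.84 on the unmodified diet (difference -2.11, SE 0.76). Glucose replicate 3 stood at the unmodified level for Vm32E, Vm34Ca and dec, and glucose replicate 2 was the lowest of all. The same order held for Vm26Aa, Vm26Ac, psd and ndl, whose differences were -1.31, -1.71, -1.47 and -1.08. The nearest to the threshold was fs(1)N, which anchors the eggshell patterning cue, with 7.0, 7.54 and 7.67 on glucose and 8.29, 8.60 and 8.07 on the unmodified diet, a difference of -0.92 (SE 0.20, limma adjusted p 0.0536). The terminal signal gene tsl was the 1 positive member, at 0.47 (SE 0.13), and clos, Fcp3C and Femcoat stood at -0.45, -1.46 and -0.87. Without 1 array the median of the group ranged from -1.79 to -0.87.

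**Figure D3:**
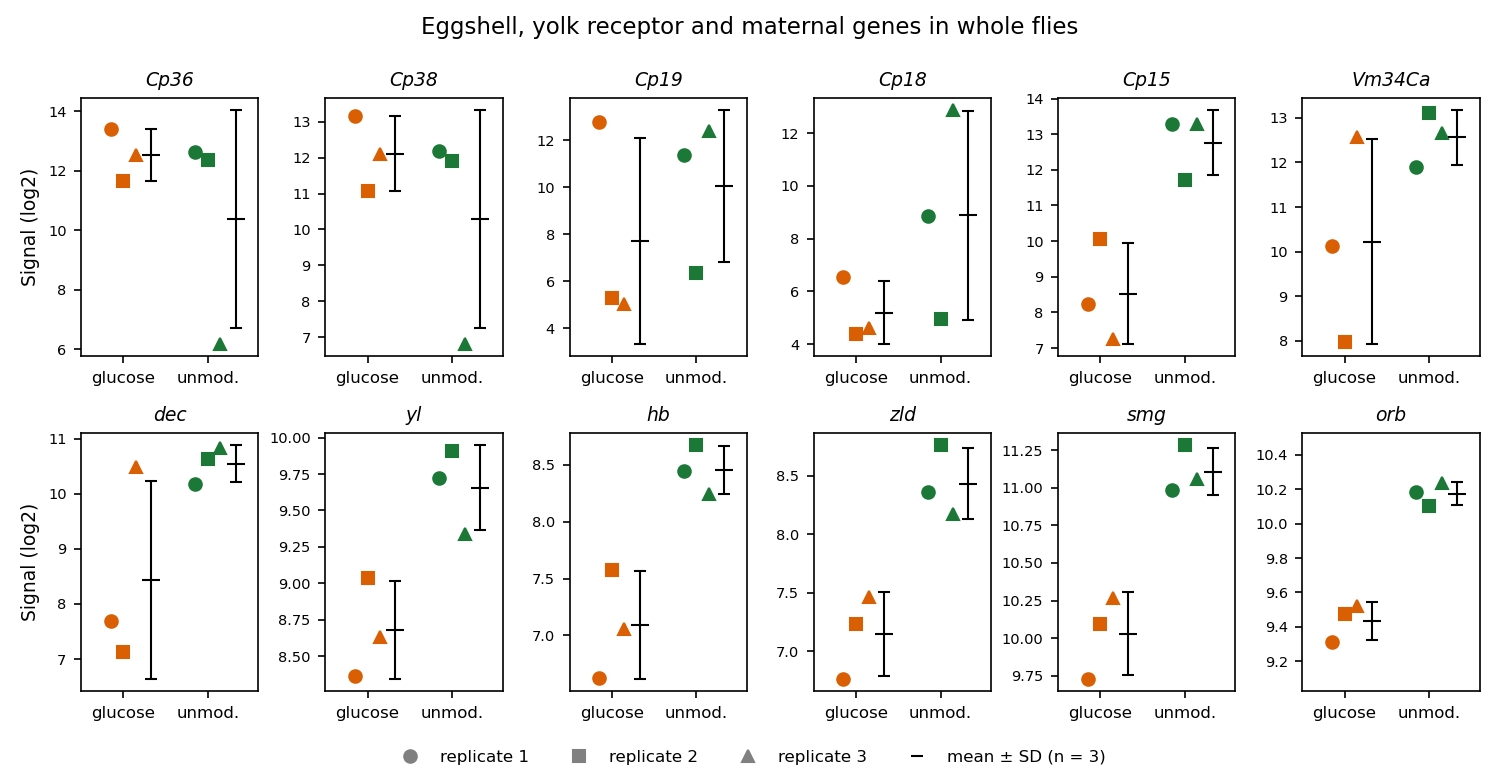
Signal (log2) of 12 eggshell, yolk receptor and maternal genes on each whole fly array, glucose (orange) left of unmodified (green), with the mean ± SD of 3 arrays beside the points; each panel has its own scale. Chorion and vitelline membrane genes scatter by several log2 units within a diet, whereas yl, hb, zld, smg and orb are lower on all 3 glucose arrays with less scatter.

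The yolk receptor gene fell, and no yolk protein gene passed. Yp1, Yp2 and Yp3, made in fat body and follicle cells, had differences of 0.03 (SE 0.10), -0.17 (SE 0.16) and 0.06 (SE 0.15), none called. The receptor gene yl, by which the oocyte takes up yolk, had 8.37, 9.04 and 8.63 on glucose and 9.73, 9.91 and 9.34 on the unmodified diet, a difference of -0.98 (SE 0.20, limma adjusted p 0.0479); in the fit over all 12 arrays the adjusted p was 0.375.

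Genes of the germline and of maternal patterning were lower on glucose. Of 35 measured, 11 fell (31.4%), none rose, 19 were lower without overlap between the diets (54.3%, against 16.5% of all named genes) and 34 had a negative difference, with a median of -0.53. In the fit over all 12 arrays 2 of the 11, hb and pum, were called, and the adjusted p of the other 9 ran from 0.0701 for smg to 0.783 for nanos. The transcription factor genes hb, of the anterior gap domain, and zld, the activator of the zygotic genome, showed the largest falls. The signal of hb was 6.63, 7.58 and 7.06 on glucose and 8.45, 8.67 and 8.25 on the unmodified diet, a difference of -1.37 (SE 0.23). That of zld was 6.76, 7.23 and 7.46 on glucose and 8.36, 8.76 and 8.17 on the unmodified diet, a difference of -1.28 (SE 0.21). Regulators of maternal messengers fell with them. The repressor gene smg had 9.73, 10.10 and 10.26 on glucose and 10.98, 11.28 and 11.06 on the unmodified diet, a difference of -1.08 (SE 0.16). The polyadenylation factor gene orb had 9.31, 9.48 and 9.52 on glucose and 10.18, 10.10 and 10.23 on the unmodified diet, a difference of -0.74 (SE 0.10). The diets were separate and the 3 arrays of each lay close together for smg and orb.

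The other called members of the germline list had smaller falls. The posterior repressor genes pum and nanos fell by 0.84 (SE 0.16) and 0.65 (SE 0.13), and a second probe set of pum showed 0.42 (SE 0.17). The oogenesis genes otu and swa fell by 0.81 and 0.74, the messenger-storage helicase gene me31B by 0.56 and the piRNA pathway gene AGO3 by 0.50. Tl, the dorsoventral receptor that also serves immunity, had 9.12, 9.39 and 9.0 on glucose and 9.86, 9.84 and 9.93 on the unmodified diet, a difference of -0.71 (SE 0.12). BicC at -0.97 (SE 0.24), vas at -0.73 (SE 0.18), exu and gcl at -0.53 each and egl at -0.37 were separated by diet without passing. The oocyte signal gene grk was the 1 member with a positive difference, with 7.82, 7.45 and 7.69 on glucose and 7.37, 7.18 and 7.32 on the unmodified diet (0.36, SE 0.12, limma adjusted p 0.138).

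Cell cycle genes were lower on glucose as well. All 22 measured genes of cyclins, mitosis and meiosis had negative differences, with a median of -0.65, and 5 of them fell (22.7%). The cyclin gene CycE, which starts DNA replication, had 7.88, 8.06 and 7.30 on glucose and 8.69, 8.66 and 8.76 on the unmodified diet, a difference of -0.96 (SE 0.19). CycD fell by 0.65 (SE 0.11), the condensin gene Cap-G by 0.65 (SE 0.10) and the anaphase activator gene fzy by 0.79 (SE 0.15), whose 2 dim probe sets showed 0.03 and -0.27. The meiotic activator gene cort, used in the egg, had 6.15, 6.24 and 5.90 on glucose and 7.02, 7.26 and 6.67 on the unmodified diet, a difference of -0.89 (SE 0.17). All 5 were separated by diet. CycB, borr, cid, ncd, twe and Cap-D2 had differences of -0.55 to -0.86 without passing.

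The 31 measured DNA replication genes also all had negative differences, with a median of -0.58; 4 fell (12.9%), of which 1 passed in the fit over all 12 arrays, and 26 had an unadjusted limma p under 0.05 (83.9%, against 15.3% of all named genes on the lower side). The licensing gene dup had 8.72, 9.30 and 8.89 on glucose and 9.75, 10.03 and 9.66 on the unmodified diet, a difference of -0.84 (SE 0.17). The helicase genes dpa and Mcm5 fell by 0.75 (SE 0.15) and 0.69 (SE 0.14), and Dp, partner of the E2F factors, by 0.56 (SE 0.11). Orc1 had 7.67, 8.65 and 8.0 on glucose and 9.16, 9.40 and 8.83 on the unmodified diet, a difference of -1.02 (SE 0.25, limma adjusted p 0.0675). Cdc6, Mcm6, Mcm10, RnrL and chif stood at -0.62 to -0.93, separated by diet and not called. For each replication gene named here glucose replicate 2 was the highest glucose array, and the median of the list ranged from -0.76 to -0.45 without 1 array.

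Several genes of the photoreceptors of the eye rose. Of 19 measured phototransduction genes 6 rose (31.6%) and none fell, and 13 were higher without overlap (68.4%, against 13% of all named genes), with a median of 0.99. The opsin gene ninaE and the phospholipase gene norpA were not analysed here. The light-gated channel gene trp had 8.56, 7.76 and 8.32 on glucose and 6.97, 6.95 and 6.98 on the unmodified diet, a rise of 1.25 (SE 0.19). Its partner trpl had 8.56, 7.91 and 8.62 on glucose and 6.98, 7.07 and 7.26 on the unmodified diet, a rise of 1.26 (SE 0.19). The unmodified arrays agreed closely for both channels, and glucose replicate 2 was the lowest glucose array. The photoreceptor adhesion gene chp, not part of the light response itself, had 8.90, 8.39 and 8.62 on glucose and 7.48, 7.34 and 7.94 on the unmodified diet, a rise of 1.05 (SE 0.19). The scaffold gene inaD and the arrestin genes Arr1 and Arr2, which shut off rhodopsin, rose by 1.19, 1.17 and 0.99. Galphaq, Gbeta76C, retinin, Pph13 and rdgB had separated differences of 0.58 to 1.23 that did not pass, and inaE was the 1 negative member at -0.47 (SE 0.11).

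Other tissues of the head and thorax were measured through their own genes. Of 25 muscle genes 1 rose (4%, against 1.69% of all named genes). It was the troponin I gene up, with 8.22, 8.03 and 8.20 on glucose and 7.57, 7.55 and 7.75 on the unmodified diet (0.53, SE 0.11, limma adjusted p 0.0476). The flight muscle actin gene Act88F had 11.82, 11.11 and 11.81 on glucose and 10.82, 10.11 and 9.78 on the unmodified diet, a difference of 1.35 (SE 0.29, limma adjusted p 0.0517). Mlc1, TpnC4, TpnC73F and sals had separated differences of 0.55 to 0.99, and the median of the muscle list was 0.48. Neuronal genes were less uniform, with no call among 19 and a median of 0.18, which ranged from -0.01 to 0.25 without 1 array; nSyb stood at 0.54 (SE 0.12) and nrv3 at 0.76 (SE 0.19), both separated by diet. Of 12 circadian clock genes 1 fell (8.33%, against 2.3% of all named genes). It was the kinase gene dco, at 8.40, 8.61 and 8.51 on glucose and 8.97, 9.04 and 8.95 on the unmodified diet (-0.48, SE 0.10). The clock genes vri, Pdp1, cry, Clk, per and tim had positive, separated differences of 0.29 to 0.59 without passing, and cyc, Pdf, Pdfr, cwo and jet overlapped between the diets at -0.21 to 0.29.

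Blood cell genes rose in part. Of 18 hemocyte genes 4 rose (22.2%, against 1.69% of all named genes). Without overlap 12 were higher (66.7%, against 13%), and the median was 0.63. The clotting gene Hml, a marker of plasmatocytes, had 8.98, 8.61 and 8.64 on glucose and 7.74, 7.25 and 8.11 on the unmodified diet, a rise of 1.04 (SE 0.21, limma adjusted p 0.0476). The scavenger receptor gene Sr-CI had 6.66, 6.03 and 6.47 on glucose and 5.23, 5.15 and 5.54 on the unmodified diet, a rise of 1.08 (SE 0.18). The collagen IV genes Col4a1 and vkg, which fat body also expresses, rose by 0.80 (SE 0.12) and 0.77 (SE 0.16). The diets did not overlap for these 4 genes. He, Tep4, crq, PPO2 and Pxn stood at 0.50 to 0.66 without passing, and PPO3, a gene of lamellocytes, was the 1 negative member at -0.77 (SE 0.25).

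Of 14 fat body and haemolymph genes 2 rose (14.3%, against 1.69% of all named genes). The growth-blocking peptide gene Gbp1 had 7.41, 7.05 and 7.11 on glucose and 6.57, 6.20 and 6.34 on the unmodified diet, a rise of 0.82 (SE 0.14), and the lipocalin gene GLaz rose by 0.54 (SE 0.11). The storage hexamerin gene Lsp2 moved the other way, with 6.96, 8.13 and 6.24 on glucose and 10.66, 9.08 and 9.05 on the unmodified diet, a difference of -2.48 (SE 0.55, limma adjusted p 0.0540). The iron carrier gene Tsf1 stood at -0.52 (SE 0.13) and the lipid carrier gene Apoltp at 1.07 (SE 0.29), neither called.

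The groups moved together across arrays, which the per-array index of each list shows. The index is the median over the genes of a list of the signal minus the gene's mean over the 6 arrays. For phototransduction it was 0.70, 0.12 and 0.51 on glucose and -0.29, -0.75 and -0.29 on the unmodified diet, and for muscle 0.37, -0.04 and 0.38 on glucose and -0.07, -0.39 and -0.20 on the unmodified diet. For DNA replication it was -0.49, 0.03 and -0.41 on glucose and 0.24, 0.54 and 0.08 on the unmodified diet. Glucose replicate 2 lay nearest to 0 among the glucose arrays for each of these 3 lists and for germline, cyclin and hemocyte genes, and unmodified replicate 2 lay farthest from 0 among the unmodified arrays. Within each diet replicate 2 was thus the lowest array for the phototransduction, muscle and hemocyte lists. It was the highest for the germline, cyclin and DNA replication lists. These groups of lists also went opposite ways between the diets and in unmodified replicate 2. In glucose replicate 2 phototransduction stood at 0.12, and the others lay near 0, from -0.06 for germline to 0.03 for DNA replication. Fat body and haemolymph genes shared the order of the somatic lists, at 0.31, 0.06 and 0.22 on glucose and -0.02, -0.58 and -0.09 on the unmodified diet. Lists of other kinds did too, among them cytochrome P450, the tricarboxylic acid cycle, tetraspanins and lysozymes. Not all somatic lists did: unmodified replicate 2 was the highest unmodified array for the neuron, circadian clock and cuticular protein lists. For the circadian clock the unmodified arrays lay close together, at -0.16, -0.12 and -0.13. The 3′ minus 5′ measure of RNA integrity moved with several of these indices. It was 3.56, 4.24 and 3.85 on glucose and 3.91, 4.53 and 3.58 on the unmodified diet, highest in replicate 2 of both. Within each diet its order was the order of the DNA replication and cyclin indices and the reverse of the phototransduction and hemocyte ones, while the germline list shared it among the glucose arrays alone and muscle in neither diet. With the measure as a covariate, an alternative chosen after seeing the data, all 99 named genes remained called in the same direction. The part of either group of lists in the differences of the other was not tested.

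**Figure D4:**
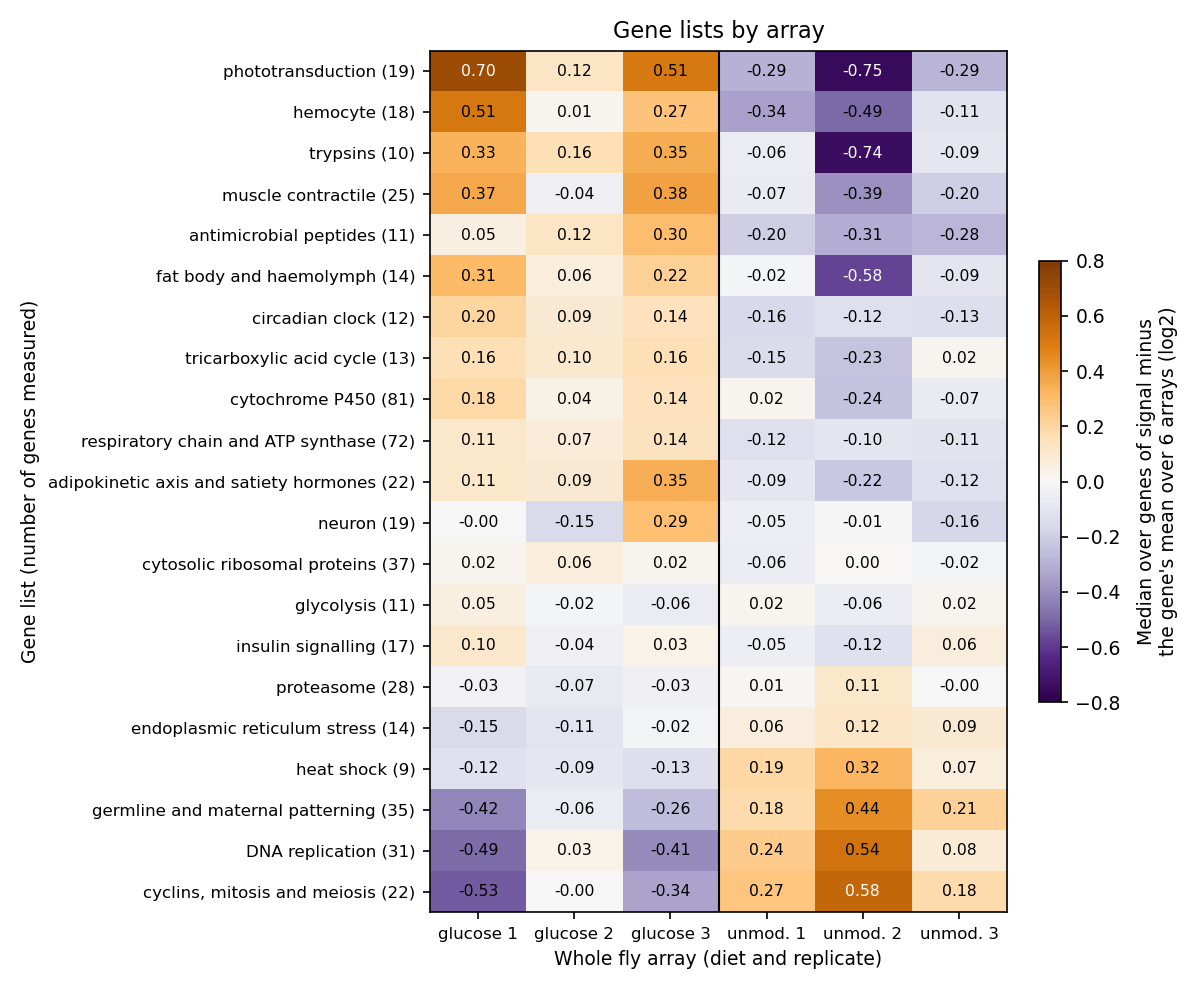
Index of 21 gene lists on each of the 6 whole fly arrays, the glucose arrays left of the unmodified (unmod.) arrays; colour and number give the median over the genes of a list of signal minus the gene's mean over the 6 arrays (log2). Eye, hemocyte and muscle lists run from 0.70 down to -0.75, germline and division lists run the other way, and the cytosolic ribosomal, glycolysis and insulin lists stay within 0.12 of 0.

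Mitochondrial genes were slightly higher on glucose. Of 72 measured subunits of the respiratory chain and ATP synthase 6 rose (8.33%, against 1.69% of all named genes) and none fell. Without overlap 44 were higher (61.1%, against 13%). The median was 0.23 and ranged from 0.22 to 0.26 without 1 array. The cytochrome oxidase gene COX7AL2 had 11.34, 11.05 and 11.28 on glucose and 10.34, 10.51 and 10.27 on the unmodified diet, a rise of 0.85 (SE 0.12, limma adjusted p 0.0334). ND-18, a subunit of complex I, had 9.85, 9.87 and 9.82 on glucose and 9.24, 9.16 and 9.41 on the unmodified diet, a rise of 0.58 (SE 0.10). Both were separated by diet, and glucose replicate 2 did not stand apart for ND-18. RFeSP and UQCR-11L of complex III rose by 0.56 and 0.71, and ND-13A and ND-13B of complex I by 0.47 and 0.48. None of 13 tricarboxylic acid cycle genes passed, although 11 differences were positive, with a median of 0.29; the succinate dehydrogenase genes SdhC, SdhD and SdhB stood at 0.45, 0.38 and 0.35.

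No gene was called in the housekeeping and stress lists of this paragraph. No member passed among 37 cytosolic ribosomal, 69 mitochondrial ribosomal, 28 proteasome and 31 vacuolar ATPase genes, with medians of 0.07, 0.08, -0.10 and 0.10. Of 9 heat shock genes none passed and the median was -0.30: Hsf, the heat shock factor, stood at -0.66 (SE 0.15), DnaJ-1 at -0.48 (SE 0.10), and Hsp26, Hsp27 and Hsp60A at -0.69, -0.65 and -0.30. The cochaperone gene stv was higher at 0.55 (SE 0.14) without passing, and l(2)efl, Hsc70-4 and Hsp68 overlapped between the diets at 0.43, -0.04 and -0.05. Of 14 endoplasmic reticulum stress genes none passed, 12 differences were negative, and the sensor genes Ire1 and PEK stood at -0.61 (SE 0.14) and -0.76 (SE 0.23). Antioxidant genes had a median of 0.13 over 13 with no call, with catalase, Cat, at 0.62 (SE 0.19). Metal binding and transport genes had a median of -0.11 over 17 with no call, with the metallothionein gene MtnD at -0.69 (SE 0.16). Without overlap 55.6% of the heat shock genes were lower and 11.1% higher. Of the endoplasmic reticulum stress genes 42.9% were lower without overlap, and of the antioxidant genes 46.2% were higher. The shares of all named genes were 16.5% lower and 13% higher.

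Immune genes rose at 2 points. Rel, the NF-kappaB factor of the Imd pathway, had 8.78, 8.65 and 8.76 on glucose and 7.92, 8.10 and 8.30 on the unmodified diet, a rise of 0.62 (SE 0.12, limma adjusted p 0.0425). It was the 1 called member of 17 in its list (5.88%, against 1.69% of all named genes), whose median was 0.10. The defensin gene Def had 5.13, 4.79 and 4.97 on glucose and 4.40, 4.34 and 4.40 on the unmodified diet, a rise of 0.59 (SE 0.11). Def was the 1 called gene of 11 antimicrobial peptides (9.09%, against 1.69% of all named genes), whose median was 0.59. The antifungal gene Mtk had the largest difference of them, 3.11 (SE 0.67, limma adjusted p 0.0516), with 9.48, 7.37 and 9.61 on glucose and 5.83, 4.65 and 6.66 on the unmodified diet. The diets did not overlap for Mtk, and replicate 2 was the lowest array of both diets. DptB, Drsl4 and AttD stood at 1.01, 0.73 and 1.39, with AttD at 5.80 on glucose replicate 3 against 3.44 or less elsewhere, and Drs, Drsl2, Drsl3, Drsl5, Drsl6 and CecB lay between -0.11 and 0.63. The Imd inhibitor genes PGRP-LF and pirk stood at 0.79 (SE 0.18) and 0.66 (SE 0.20), and PGRP-SC2, an amidase, at -0.48 (SE 0.17), none called.

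In the Toll pathway list Tl was the 1 called gene of 18 (5.56%, against 2.3% of all named genes on the lower side). The protease genes grass, SPE and psh and the inhibitor gene nec were higher at 0.62 to 0.70, separated and not called. Of 9 Turandot and JAK-STAT genes 1 fell (11.1%, against 2.3% of all named genes). It was the receptor gene dome, with 6.99, 7.43 and 7.36 on glucose and 8.05, 8.25 and 7.83 on the unmodified diet (-0.78, SE 0.16). TotC was high on glucose replicate 3 alone, at 3.93, 3.92 and 5.90 on glucose and 3.74, 3.72 and 2.96 on the unmodified diet, a difference of 1.11 (SE 0.51). Tep3 and Listericin stood at 0.52 and 0.41, and Stat92E, TotB, TotE, TotF and TotZ at -0.12 to 0.07.

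Few digestive genes passed the test. The median of 17 amylase and maltase genes was -0.15 and ranged from -0.37 to 0.01 without 1 array. Of these genes 1 fell (5.88%, against 2.3% of all named genes). It was Mal-A4, at 5.42, 6.07 and 6.17 on glucose and 7.34, 6.77 and 6.88 on the unmodified diet (-1.11, SE 0.23, limma adjusted p 0.0467). Of 10 trypsin genes none passed, though 9 differences were positive, with a median of 0.74: iotaTry, zetaTry, etaTry, kappaTry and lambdaTry lay at 0.76 to 1.03, all separated by diet. The abundant alphaTry and betaTry stood at 0.05 and -0.08, and epsilonTry, thetaTry and Try29F at 0.02, 0.14 and 0.71. No Jonah protease passed among 13. Besides LysX the lysozyme genes LysS and LysP stood at 0.47 (SE 0.18) and 0.54 (SE 0.24). Of 31 mucin and peritrophin genes 1 rose (3.23%, against 1.69% of all named genes). It was Gasp, a chitin-binding gene of the tracheal and cuticular matrix, at 7.01, 6.74 and 6.94 on glucose and 6.34, 5.93 and 6.34 on the unmodified diet (0.69, SE 0.14).

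Detoxification genes gave 6 rises and no fall. Of 81 cytochrome P450 genes 4 rose (4.94%, against 1.69% of all named genes). Without overlap 25 were higher (30.9%, against 13%), and the median was 0.24. Cyp6a2, linked to insecticide resistance, had 5.87, 5.67 and 5.89 on glucose and 5.03, 5.21 and 4.92 on the unmodified diet, a rise of 0.76 (SE 0.12). Cyp4p1, Cyp4ac3 and Cyp6w1 rose by 0.88, 0.72 and 0.54. Cyp4g1, the oenocyte enzyme of cuticular hydrocarbon synthesis, stood at 0.55 (SE 0.13, limma adjusted p 0.0643). Of 34 glutathione transferase genes 2 rose (5.88%, against 1.69% of all named genes). GstD2 had 6.86, 6.54 and 7.44 on glucose and 5.19, 5.84 and 5.77 on the unmodified diet (1.35, SE 0.25), and GstE2 rose by 0.51 (SE 0.10). None of 35 UDP-glycosyltransferase genes passed. Of 105 cuticular protein genes 2 rose (1.9%, near the 1.69% of all named genes), Cpr66D by 1.38 (SE 0.23) and Cpr49Ae by 0.82 (SE 0.11). Of 32 tetraspanin genes 1 fell (3.12%, against 2.3% of all named genes), Tsp97E, by 0.63 (SE 0.11). No call fell among 47 odorant-binding proteins, 166 chemosensory receptors or 16 serine, glycine and one-carbon genes.

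The whole fly differences were set beside those of midgut arrays from the same diets, with 10 midguts a sample in place of 5 flies. In midgut 1 of 18769 probe sets (0.00533%) passed the same test, CG1648, which was also called in whole flies. CG1648 had 11.34, 10.43 and 11.13 on glucose and 9.29, 9.30 and 9.37 on the unmodified diet in whole flies, a rise of 1.65 (SE 0.22), and its midgut difference was 1.49 (SE 0.11). CG9825 stood at 1.63 (SE 0.32) in whole flies and 1.37 (SE 0.34) in midgut. The falls of CG8093, CG6283 and CG15533, of -2.04, -1.27 and -1.27 in whole flies, stood beside -2.32, -1.26 and -1.87 in midgut. That of Mal-A4, -1.11, stood beside -1.22. For sug the midgut difference was 0.70 and for bigmax 0.38. LysX stood at 0.39 (SE 0.86) and GstD2 at -1.07 in midgut. The 203 genes that rose in whole flies had a median midgut difference of 0.14, with 143 on the same side of 0, and the 276 that fell had one of 0.03, with 124 on the same side.

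The diet effects of the tissues were tested against each other over all 12 arrays. For 8 probe sets (0.0426%) the effect in whole flies differed from that in midgut, 1 higher and 7 lower, with limma adjusted p-values at 0.05 when rounded. They include 6 named genes. The centriole gene ana3 differed by -1.06 (SE 0.10) between diets in whole flies and by 0.07 (SE 0.12) in midgut, and cno by -1.37 (SE 0.14) in whole flies and 0.15 (SE 0.14) in midgut. The zinc finger gene jing and the meiotic recombination gene rec differed by -0.99 and -0.95 in whole flies, and by 0.25 and 0.10 in midgut. CG2186 stood at -1.17 in whole flies and 0.04 in midgut. The gene flap was the 1 with a higher effect, at 0.81 in whole flies and -0.20 in midgut. These calls sit at the threshold, and leaving out 1 array gave between 0 and 361 of them, the highest count without whole fly glucose replicate 2.

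**Figure D5:**
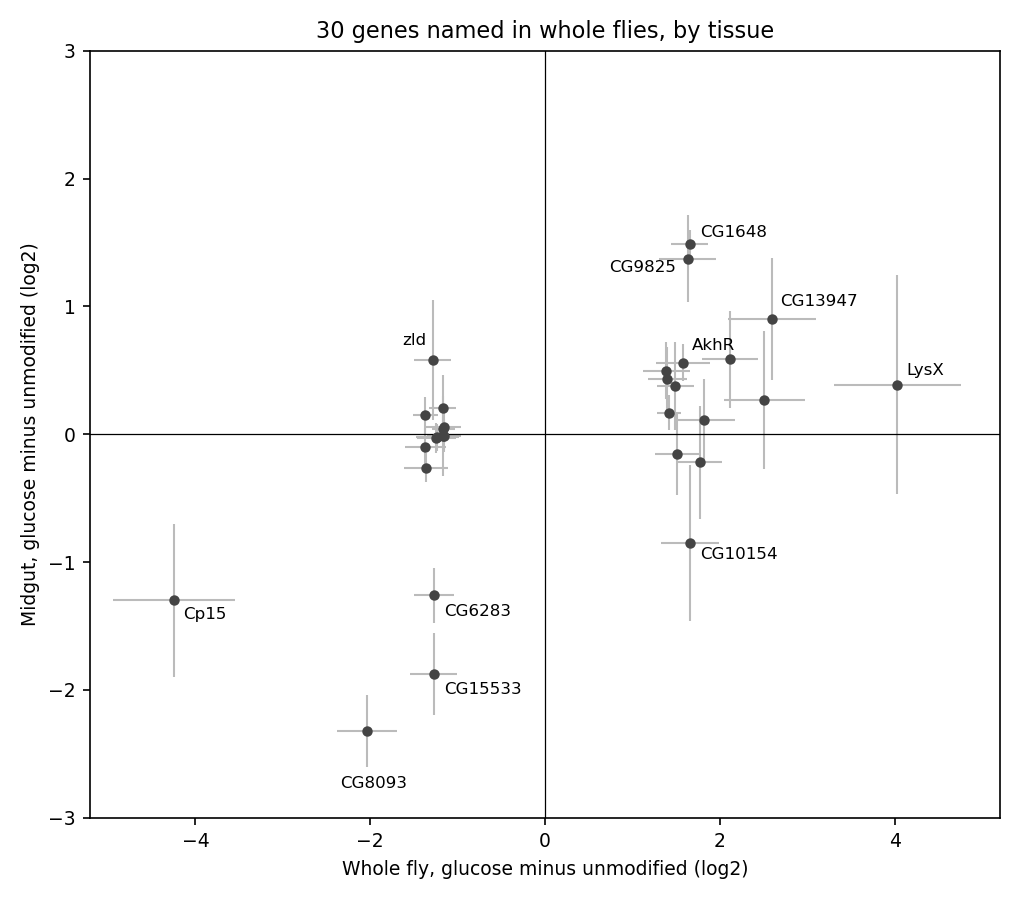
Diet difference (glucose minus unmodified, log2) in midgut against that in whole flies for the 15 largest called rises and 15 largest called falls in whole flies, with bars of 1 SE from limma. CG1648, CG9825, CG8093, CG15533 and CG6283 lie on the same side of 0 in both tissues, away from it, and most of the other falls lie near 0 in midgut.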

How the data were processed

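Whole fly and midgut RNA of adult females was measured on single-colour Affymetrix 3′ arrays from 100 ng of total RNA, extracted with Trizol and labelled as biotin-cRNA per the labels' protocols. The authors deposited 1 log2 signal per probe set and array, made with Affymetrix Expression Console per the submitters' processing notes. Not given in the sources used here are its version, the algorithm that summarised the probes, and whether both tissues were normalized in 1 run; that the scale is log2 follows from the values. Signals of dim probe sets lie near background, where differences are compressed. Precision is limited by the number of arrays.

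After 183 Affymetrix controls were removed from the 18952 probe sets, 18769 were tested. Of these, 13647 carry 1 gene symbol in the platform annotation, 402 carry several and 4720 carry none, giving 11982 named genes. A RefSeq gene table (Release 6 plus ISO1 MT) was used for names only; 103 named probe sets have an identifier that it lacks. At most 0.0213% of values were identical between 2 arrays of a group, and no array was taken for a repeat of another.

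The diets were compared in limma 3.58.1 (R 4.3.3), with lmFit and eBayes run on the log2 values as deposited for the 6 whole fly arrays. The contrast was glucose minus unmodified, without covariates. The difference of diet effects between whole fly and midgut came from a fit to all 12 arrays. Benjamini-Hochberg adjustment of the two-sided p-values covered the whole table, with 0.05 as the threshold, and the fit was tested on simulated data. A gene was read from its brightest probe set over the 6 arrays. Among genes called on it, 63 have 108 other probe sets, of which 9 were called and 30 had the opposite sign.

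Gene lists, 52 in all, are described by counts and medians beside those of all named genes. The comparison, the lists and the rule for named genes were chosen with earlier results of these data known. After the values were read, several list entries (for nanos, phantom, Gcsh and Orcokinin among others) were renamed or dropped because their symbol or pattern had matched another gene. Named were the 15 largest called rises and falls, the called members of each list with up to 6 others of smallest p, all members of lists of at most 12 genes, and up to 5 genes each way for the tissue difference. Alternatives were the removal of the 40% dimmest probe sets, another variance prior, median centring, quantile normalization, array weights, the replicate number, a fit over 12 arrays, a 2-fold threshold, the mean of a gene's probe sets, and every fit short of 1 array. The 3′ to 5′ difference as a covariate was chosen after seeing the data. A search of promoters for motifs, planned at the start, was not run.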

Additional observations from a re-analysis of the deposited data

Results flagged for a closer look

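The diet effect in whole flies differed from that in midgut, by the test of the difference itself over 12 arrays in limma, for 6 named genes. The effect in whole flies minus that in midgut was -1.52 for cno, -1.25 for jing, -1.21 for CG2186, -1.13 for ana3 and -1.06 for rec, and it was 1.02 for flap. Each had an adjusted p just under the threshold, 0.05 when rounded. The counts of such probe sets under other settings and without 1 array are given with the processing. No whole fly or midgut group had enough arrays for a check of single samples against the rest of their group.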

How the results depend on the processing

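All 99 named genes called in whole flies kept their direction under all 14 alternative fits tried. Of these fits only quantile normalization and the 3′ to 5′ covariate could have changed it. Median centring moved every difference by the same small amount and took the median of all probe sets to -0.05. The smallest called rise of a gene was 0.46 and the smallest called fall -0.47, so centring could not reverse them. The others returned the same difference or could not reverse genes separated by diet. Not all genes kept the call. It was kept by 75 in the fit over all 12 arrays, where AGO3, cbt, CG10154, Cpr49Ae, CycE, Cyp6w1, Def, dpa, dup, fzy, Gbp1, GstD2, Mcm5, me31B, nanos, orb, otu, smg, swa, Tl, up, UQCR-11L, yl and zld lost it. With the trend and robust prior it was kept by 85, and AGO3, CG13947, CG17224, Cp15, Cyp6w1, dco, Def, GLaz, GstE2, lncRNA:CR32368, Lpin, LysX, ND-13B and up lost it. The dim filter kept 95, without AGO3, dco, ND-13A and ND-13B; median centring kept 93, without Cyp6w1, GstE2, Lpin, ND-13A, ND-13B and up; and quantile normalization kept 94, without AGO3, GstE2, Mcm5, ND-13A and yl. Array weights, the replicate block and the 3′ to 5′ covariate kept all 99. Without glucose replicate 2 the call was kept by 97, and without any other 1 array by 0 or 1. Against 584 probe sets called in whole flies, 1281 were called with array weights, 1234 in the fit over all 12 arrays (490 shared with the 584), 1935 with the 3′ to 5′ covariate and 119 at a 2-fold threshold. The dim filter, the trend and robust prior, median centring and quantile normalization gave 577, 690, 753 and 658. Median centring shifted the median of all probe sets to -0.05 and the share of higher calls to 33.6%, with 253 higher and 500 lower, against 42.3%. Leaving out 1 array gave 0 to 1563, and the cause of that range was not tested. The values do not settle whether same-numbered samples pair. Their deviations correlated at 0.20, 0.31 and -0.01, and the 0.31 of replicate 2 was the highest of all pairs. Glucose replicates 1 and 3 correlated best with unmodified replicates 3 and 2, at 0.22 and 0.02, not with their own numbers. The replicate block gave 1711 calls (756 higher, 955 lower). For the tissue difference, 8 probe sets were called, against 0 with the dim filter (2255 at an unadjusted limma p under 0.05), 0 with the trend and robust prior (2697), 24 with median centring, 21 with quantile normalization, 47 with array weights, 749 with the replicate block and 0 to 361 without 1 array. Of 52 list medians, 9 changed sign under another scaling, filter or probe set rule and 15 without 1 array, 16 in all. Of these, 14 lay within 0.08 of 0 as reported, and the other 2 were the neuron list (0.18) and the amylases and maltases (-0.15).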

Other observations

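Among called genes outside the lists, some related genes were noticed together; they were chosen after their values were seen and carry no test as groups. In the basement membrane, the perlecan gene trol and the Tiggrin gene Tig rose by 0.86 and 1.0 (the other probe sets of trol showed -0.01 to 0.63, none called), beside the collagen genes described above. Plasmatocyte receptor-family genes NimB4 and NimB3 rose by 1.02 and 0.86. Of the Enhancer of split complex, which Notch signalling switches on, E(spl)malpha-BFM, E(spl)m3-HLH and E(spl)mbeta-HLH rose by 0.79, 0.62 and 0.60, while the Notch pathway inhibitor genes H and numb fell by 0.79 and 0.67; a second probe set of H showed 0.01 (SE 0.12) and was not called. The gamma-tubulin complex genes Grip163, Grip91 and Grip71 fell by 0.75, 0.63 and 0.68. Chromatin regulator genes nej, Asx, Scm and brm fell by 0.85, 0.76, 0.69 and 0.67.

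More maternal and germline genes were also among the falls, again chosen after their values were seen: the messenger-decay gene Patr-1 at -1.09, the actin nucleator gene spir at -0.94 (with 0.08 and 0.21 on 2 dimmer probe sets, neither called), the meiotic kinase gene gwl at -0.91, the oocyte RNA gene Marf1 at -0.91 and the piRNA helicase gene spn-E at -0.82. The proline synthesis gene P5CS rose by 1.02. The iron-sulphur cluster genes IscU and MagR rose by 0.55 and 0.49, and the haem synthesis gene Alas by 0.66.

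For genes with several probe sets the sets did not always move together. The transcription factor gene lola, which makes many isoforms, was called lower at -1.03 on its brightest probe set, while other probe sets of lola showed 0.46 and 0.46 at unadjusted limma p-values of 0.0167 and 0.0275. Other genes with such an opposite probe set were pyd, ctrip, RN-tre, pum and tyf, at 0.31, 0.41, 0.40, 0.42 and 0.26, against -0.64, -0.62, -0.67, -0.84 and -1.0 on the brightest one. Which transcripts these probe sets read was not analysed here.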
